A study of Astyanax mexicanus with 6 samples.

Results

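Liver open chromatin of Pachon cave fish was set against that of Surface fish, the river-dwelling form of the Mexican tetra Astyanax mexicanus. The peaks of the Pachon list and of the Surface list that overlapped or touched were merged, and each merged stretch is called a region. A region with peaks of both lists is called shared, one with Pachon peaks alone Pachon-gained, and one with Surface peaks alone Pachon-lost. The merging gave 93201 regions, against 110214 when the list of another cave form, Tinaja, was merged in as well. The Tinaja list entered none of the classes here. "Gained" and "lost" are names for presence in one list, with Surface as the reference, and give no direction of evolution.

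The groups compared were livers of Pachon cave fish and livers of Surface fish, with 2 samples each by the labels, out of 6 samples in the series. The labels name no treatment, age, sex or feeding state, and do not say whether a sample held 1 liver or several. Each form had 1 peak list, recorded under its replicate 1, and whether a list rests on 1 sample or on both is not stated. So no spread between replicates could be measured, no test between the forms was made, and every difference below is a difference between 2 lists. Intervals for shares are Wilson 95% intervals and those for medians come from order statistics. Both describe counting error or the spread over regions, not the spread between fish, and neighbouring regions are not independent.

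In the nucleus, DNA is wrapped on nucleosomes, and regulatory elements such as promoters and enhancers are the stretches where the wrapping is loosened. ATAC-seq marks them by a transposase that inserts sequencing adapters into exposed DNA, and a peak is a stretch with more insertions than its surroundings. The liver handles sugar, fat and bile, and cave forms of this species are known for large fat stores and for surviving long without food. No genome sequence or gene annotation of the build of the lists was used, so regions are named by position only and the genes at them were not analysed here. Positions are 1-based in the coordinates of the lists, for which the labels name no build. As background, the scaffold names in the lists carry the prefix of an assembly made from surface fish that is older than AstMex3. A table of AstMex3 genes gave no positions here, since on 4 of 25 chromosomes the last peak lay beyond the last gene of that table (on chromosome 25 at 46504842, against 27315437 for the last gene end).

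Lists of almost equal length were obtained from both forms, but the Pachon peaks were narrower. The Pachon list held 72521 peaks over 48.1 Mb, and the Surface list 73380 peaks over 51.9 Mb. The interquartile range of widths was 344 to 769 bp in Pachon and 354 to 843 bp in Surface. The narrowest peak was 221 bp in Pachon and 212 bp in Surface, and the widest 28064 bp in Pachon and 28074 bp in Surface. The number of reads behind each list is unknown here, so how far depth moves with these numbers was not tested.

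Shared regions were the largest class where any overlap counted, and the others divided almost evenly between gain and loss. Pachon-gained regions numbered 20724 (22.2%, interval 22.0 to 22.5) and Pachon-lost regions 21994 (23.6%, interval 23.3 to 23.9), beside 50483 shared regions (54.2%, interval 53.8 to 54.5). Pachon-gained regions were 29.1% of all regions with a Pachon peak (interval 28.8 to 29.4), and Pachon-lost regions 30.3% of all regions with a Surface peak (interval 30.0 to 30.7). When the peaks of both lists had to overlap by 50% of each, the shares were 29.1% gained, 29.9% lost and 41.0% shared, of 103504 regions. By the rule used here there were 1270 more lost than gained regions, a lost-to-gained ratio of 1.06 (interval 1.04 to 1.08). The ratio was 1.08 on the 25 chromosomes, with 13689 gained and 14825 lost regions, and 1.02 on unplaced scaffolds, with 7035 gained and 7169 lost. Over all sequences it was 1.02 when the Surface list was shortened to the Pachon number by dropping its narrowest peaks. Equal numbers of peaks bring the ratio closer to 1 by construction.

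Counted in bases, most of what one form covered alone lay in unshared regions, but a large part lay inside shared ones. Pachon alone covered 14.6 Mb, of which 65.5% lay in Pachon-gained regions and the remainder inside shared ones. Surface alone covered 18.4 Mb, of which 55.6% lay in Pachon-lost regions. The gap between the 2 lists was larger inside shared regions, where 5.03 Mb was covered by Pachon alone and 8.16 Mb by Surface alone, than between the classes, where gained regions held 9.53 Mb and lost regions 10.2 Mb. Both lists together covered 33.5 Mb, or 50.4% of the 66.4 Mb covered by either.

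Gained and lost regions were similar in length, and both were far shorter than shared ones. The median was 365 bp for Pachon-gained regions (interquartile range 279 to 515), 372 bp for Pachon-lost regions (277 to 529) and 734 bp for shared regions (521 to 1072). A shared region is the union of at least 2 peaks, so its length is greater in part by construction. Regions under 500 bp made up most of both unshared classes: 6596 gained and 6974 lost regions were under 300 bp, and 8625 gained and 8879 lost regions were of at least 300 and under 500 bp. At 2000 bp and more, 137 regions were gained and 136 lost, against 2795 shared.

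**Figure D1:**
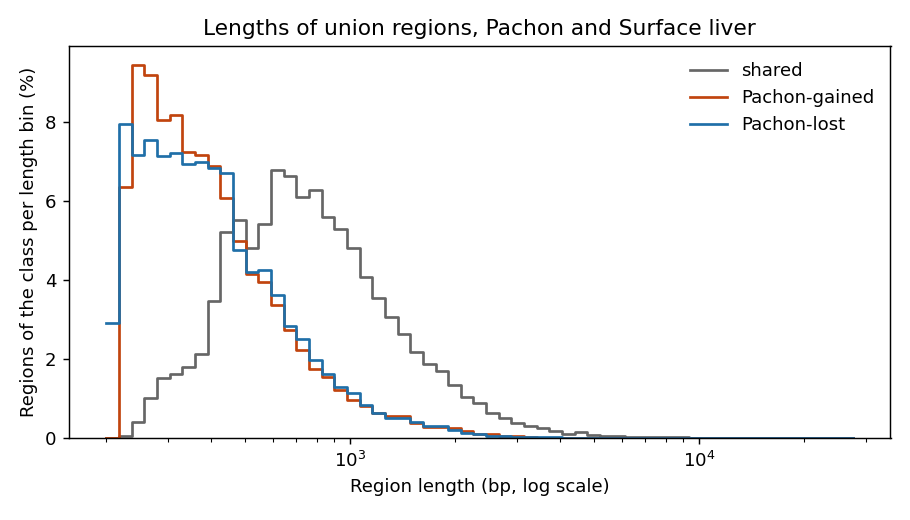
Length of regions in bp (log axis) against the percentage of each class in each of 60 length bins. The curves of Pachon-gained (median 365 bp) and Pachon-lost regions (median 372 bp) lie close together, to the left of the curve of shared regions (median 734 bp).

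The share of peaks without a counterpart fell with width in both lists. Of Pachon peaks under 300 bp, 53.7% had no Surface peak overlapping them (interval 52.9 to 54.6), and of Surface peaks under 300 bp, 57.1% had no Pachon peak (interval 56.2 to 58.0). From 500 to under 1000 bp the shares without a counterpart were 17.0% of Pachon and 18.7% of Surface peaks. The order turned for wide peaks: from 1000 to under 2000 bp, 10.8% of Pachon peaks (interval 10.1 to 11.4) and 9.16% of Surface peaks (interval 8.62 to 9.72) stood alone, and at 2000 bp and more 7.20% of Pachon peaks (interval 6.12 to 8.45) and 6.06% of Surface peaks (interval 5.14 to 7.12). Of the wide peaks in each list, then, a slightly larger share of the Pachon ones was unmatched, though for the widest class the intervals overlap. By number, 916 of 8510 Pachon and 982 of 10726 Surface peaks from 1000 to under 2000 bp stood alone. At 2000 bp and more, 137 of 1903 Pachon and 136 of 2246 Surface peaks did. The turn thus concerns shares, and the Surface list held more wide peaks.

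The class of many regions depended on how much overlap was asked for, although few peaks were at the very edge of the rule. Under the 50% requirement above, 30124 regions were gained, 30983 lost and 42397 shared. Of shared regions with exactly 1 peak of each list, 88 (0.182%) had peaks that overlapped by less than 50 bp, and the median overlap was 486 bp. On the chromosomes, 150 gained regions (1.10%) lay within 200 bp of a Surface peak, and 202 lost regions (1.36%) lay within 200 bp of a Pachon peak.

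Within shared regions the Pachon peak was on balance a little narrower than the Surface peak. Of the shared regions, 48417 (95.9%) held exactly 1 peak of each list, and in these the median width was 576 bp in Pachon (interquartile range 404 to 847) and 635 bp in Surface (430 to 936). The median log2 ratio of widths, Pachon over Surface, was -0.060 (interval -0.064 to -0.056), a ratio of 0.959. The Pachon peak was the narrower in 58.3% of these regions (interval 57.8 to 58.7) and the wider in 41.3%. The spread over regions was wide beside this shift, with the middle 50% of log2 ratios between -0.40 and 0.15.

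Differences of 2-fold or more were uncommon and leaned the same way. The Pachon peak was at least 2-fold narrower in 3188 of the 48417 regions (6.58%) and at least 2-fold wider in 1979 (4.09%). The other 43250 regions (89.3%) differed by less than 2-fold. The shift depended on the length of the region. The median log2 ratio was 0.040 for regions under 300 bp (interval 0.031 to 0.052), -0.0031 from 300 to under 500 bp (interval -0.0084 to 0.0034), -0.094 from 500 to under 1000 bp (interval -0.10 to -0.087), -0.11 from 1000 to under 2000 bp (interval -0.12 to -0.098) and -0.017 at 2000 bp and more (interval -0.027 to -0.010). Pachon peaks were thus narrower mainly in shared regions of middle length, and in the shortest regions slightly wider. Regions under 300 bp lie close to the narrowest widths in the lists, 221 bp in Pachon and 212 bp in Surface. Whether these unequal lower limits produce the small shift there was not tested.

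**Figure D2:**
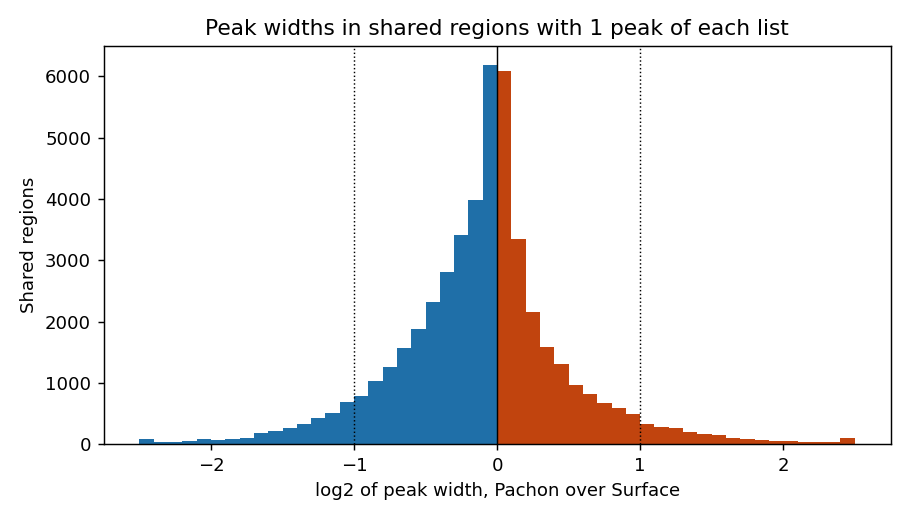
Histogram of the log2 ratio of peak widths, Pachon over Surface, in the 48417 shared regions with 1 peak of each list; dotted lines mark 2-fold, the outermost bars hold all values beyond, and blue bars are regions narrower in Pachon. More regions lie left of 0 (58.3%) than right of it (41.3%).

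The peaks of both forms were centred close to each other. The median distance between midpoints was 56.5 bp (interquartile range 19 to 113.5), and in 34351 of the 48417 regions (70.9%) it was at most 100 bp. The Pachon peak lay wholly inside the Surface peak in 15995 regions (33.0%), and the Surface peak inside the Pachon peak in 11365 (23.5%). In 21006 regions (43.4%) the peaks were staggered, and in 51 both ends were identical. The inset of the Pachon peak had a median of 4 bp at either end, so neither side was favoured. Peaks covered in common a median of 76.8% of the region.

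An opening that was 1 peak in one form and several in the other was more often split in Pachon. In 1192 shared regions (2.36% of 50483) a single Surface peak matched 2 or more Pachon peaks, and in 810 (1.60%) a single Pachon peak matched 2 or more Surface peaks. The most peaks in any region were 6 of Pachon and 4 of Surface.

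Although the lists were of similar length, their peaks were placed differently along the chromosomes: Surface peaks were crowded and Pachon peaks more evenly spread. The median gap between neighbouring peaks was 8833 bp in Pachon and 7459 bp in Surface, and the Pachon gap was the wider on 25 of 25 chromosomes. The mean gaps were 17930 bp in Pachon and 17584 bp in Surface, much closer than the medians. Gaps under 2 kb made up 16.8% of the Pachon and 20.8% of the Surface gaps. At the other extreme, gaps of 100 kb or more numbered 992 in Pachon and 1315 in Surface. The Surface list thus had more of both the shortest and the longest gaps.

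Peak counts per 1 Mb window showed the same contrast. Over 919 windows, those lying wholly before the last peak of a chromosome, the mean was 53.9 ± 16.0 peaks in Pachon and 54.7 ± 20.4 in Surface (SD over windows, n = 919). The median was 54 in both. Windows with fewer than 20 peaks numbered 16 in Pachon and 36 in Surface, and windows with 100 or more numbered 2 in Pachon and 21 in Surface. The variance divided by the mean was 4.72 in Pachon and 7.64 in Surface.

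Gained regions lay farther from the other form's peaks than lost regions did. These distances depend on the spacing given above, where Surface peaks were the more crowded and had more of the longest gaps. How far that spacing accounts for the distances, and for the runs and density shares below, was not tested. The median distance from a Pachon-gained region to the nearest Surface peak was 6774 bp (interval 6567 to 7025), and that from a Pachon-lost region to the nearest Pachon peak 4059 bp (interval 3944 to 4190). The gained distance was the greater on 25 of 25 chromosomes, where its median ranged from 5402 to 9275 bp, against 3450 to 5442 bp for lost regions. Of gained regions, 11.2% had a Surface peak within 1 kb and 6.17% had none within 50 kb. Of lost regions, 17.6% had a Pachon peak within 1 kb and 1.45% had none within 50 kb. Median lengths changed little with this distance: gained regions over 10 kb from a Surface peak had a median of 367 bp and those within 1 kb 350 bp, and for lost regions the medians were 376 and 362 bp. Regions of 1 kb or more were commoner far from the other list: they made up 4.96% of gained regions over 10 kb away and 3.46% of those within 1 kb, and 5.11% and 2.83% of lost regions. This trend is partly built in: a long peak near a peak of the other list is more likely to overlap it and count as shared.

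**Figure D3:**
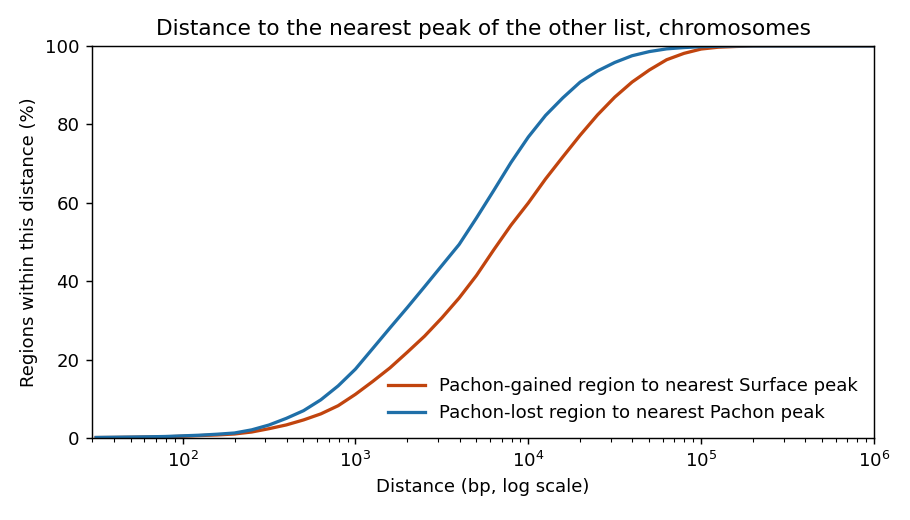
Percentage of unshared regions on chromosomes that have a peak of the other list within a given distance in bp (log axis). The curve of Pachon-gained regions (median 6774 bp) runs to the right of that of Pachon-lost regions (median 4059 bp).

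Regions of one class tended to follow each other. A Pachon-gained region was followed by another in 32.3% of cases (interval 31.5 to 33.1), while gained regions were 21.4% of all chromosomal regions. A Pachon-lost region was followed by another in 27.2% (interval 26.5 to 27.9), while lost regions were 23.1% of all. The percentage was higher for gained than for lost regions on 23 of 25 chromosomes. A shared region came next after 47.8% of gained and after 54.3% of lost regions, shared regions being 55.5% of all. A lost region came next after 19.9% of gained regions (interval 19.3 to 20.6), below its share of all.

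Gained regions made up a larger share of regions where open chromatin was sparse, and lost ones a slightly larger share where it was dense. Windows of 1 Mb with at least 20 regions, 930 in all, were ordered by their number of Tinaja peaks, which played no part in the classes, and divided into 4 groups of 232 or 233. Some are cut short at chromosome ends, since only 919 windows lie wholly before a chromosome's last peak. Such windows can rank as sparse because they are short. From the sparsest to the densest group, the share of gained regions was 26.7% (interval 25.9 to 27.6), 23.7% (interval 23.0 to 24.4), 21.1% (interval 20.5 to 21.7) and 17.4% (interval 16.9 to 17.9). The share of lost regions was 22.4% (interval 21.6 to 23.3), 22.4% (interval 21.7 to 23.1), 23.3% (interval 22.7 to 23.9) and 23.9% (interval 23.3 to 24.5). The lost-to-gained ratio accordingly was 0.840 in the sparsest group and 1.37 in the densest. The main change was in the gained share, while the lost share moved by under 2 percentage points. By number, both classes were larger in the densest than in the sparsest group: 3788 against 2770 gained and 5195 against 2326 lost regions.

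The same order held for peak numbers and widths. The peak numbers largely restate the lost-to-gained ratio, since each unshared region comes from peaks of a single list. In the sparsest group the Pachon list held 8175 peaks and the Surface list 7689, a ratio of 1.06 of Pachon over Surface, and in the densest group 16871 and 18145, a ratio of 0.930. The median log2 width ratio of shared peaks, Pachon over Surface, was -0.035 in the sparsest group (interval -0.048 to -0.024) and -0.092 in the densest (interval -0.10 to -0.084). Across the 930 windows, the number of Tinaja peaks and the share of gained regions had a Pearson r of -0.35 and a Spearman rho of -0.36, and for the share of lost regions r was 0.079 and rho 0.11. These values describe windows of the same lists, which share their libraries, and carry no test.

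**Figure D4:**
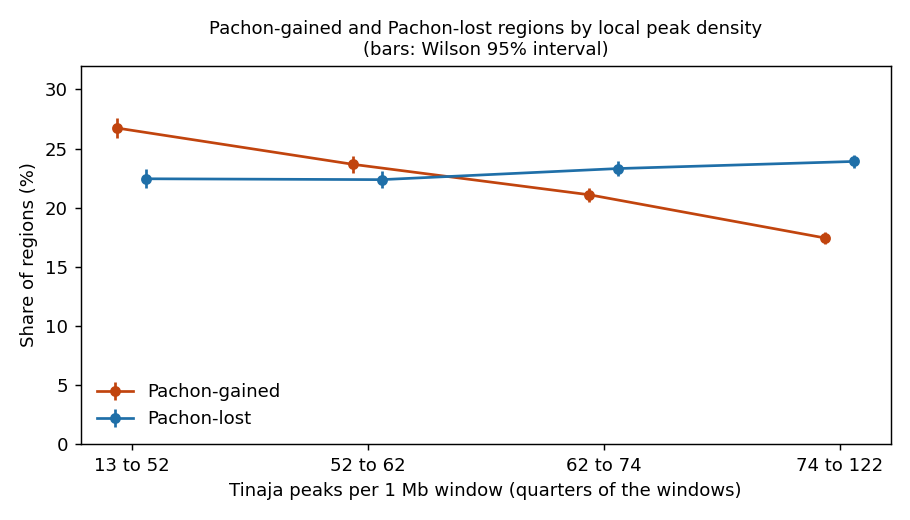
Share of regions that were Pachon-gained or Pachon-lost (percent, with Wilson 95% intervals) in 4 groups of 232 or 233 windows of 1 Mb ordered by their number of Tinaja peaks. The gained share is 26.7% in the sparsest and 17.4% in the densest group, and the lost share 22.4% and 23.9%.

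The chromosomes differed both in how much they shared and in the balance of gain and loss. The shared percentage ranged from 51.4% on chromosome 21 to 57.4% on chromosome 3. Lost regions outnumbered gained ones on 17 of 25 chromosomes, and on 11 of them the interval of the lost-to-gained ratio lay above 1. Chromosomes 11 and 22 had the highest ratios, 1.47 in both: chromosome 11 had 140 gained and 206 lost regions (interval 1.19 to 1.82), and chromosome 22 had 373 gained and 547 lost (interval 1.29 to 1.67). Chromosome 23 was at the other end with 649 gained and 555 lost regions, a ratio of 0.855 (interval 0.764 to 0.958), and was the single chromosome whose interval lay below 1. Chromosome 8 came next, with 487 gained and 430 lost regions (ratio 0.883, interval 0.776 to 1.01). These balances largely restate peak counts, since most shared regions hold 1 peak of each list. Surface peaks outnumbered Pachon peaks on 15 of 25 chromosomes. The counts were 657 Surface and 602 Pachon peaks on chromosome 11, 1792 and 1629 on chromosome 22, and 2092 and 2199 on chromosome 23.

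Gain and loss traded places across chromosomes. The gained share ran from 17.4% on chromosome 22 to 24.8% on chromosome 21, and the lost share from 20.4% on chromosome 23 to 26.0% on chromosome 11. Over the 25 chromosomes the shares had a Pearson r of -0.68 and a Spearman rho of -0.70; they are parts of one total, so a negative value is partly built in. Chromosome 3, by far the richest with 5382 regions, was near balance with 1160 gained and 1131 lost. Chromosome 21 was the sparsest, with 49.4 regions per Mb, and chromosome 14 the densest with 76.2. Pachon peaks in shared regions were narrower at the median on all 25 chromosomes, with log2 ratios from -0.16 on chromosome 11 (interval -0.21 to -0.12) to -0.036 on chromosome 24, and the interval lay below 0 on each.

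**Figure D5:**
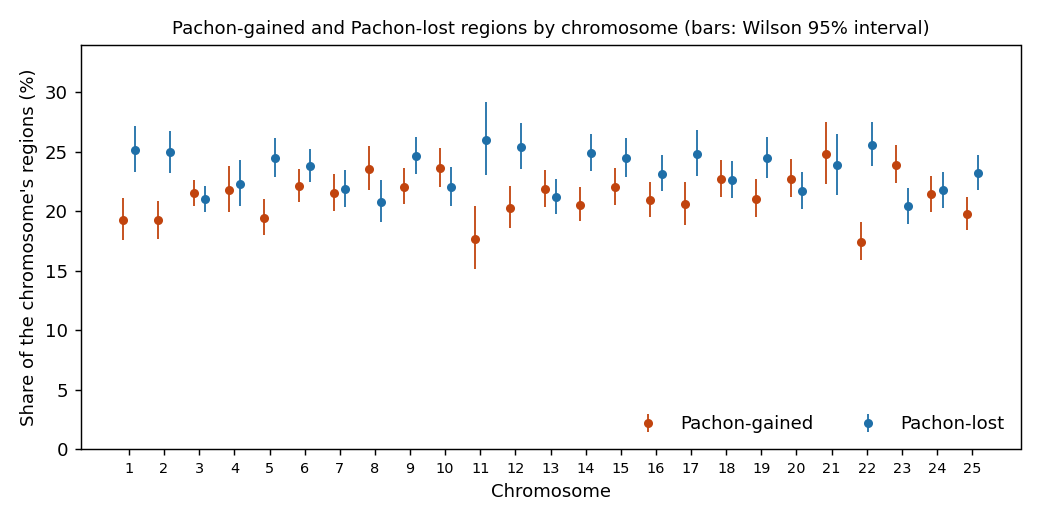
Share of each chromosome's regions that were Pachon-gained or Pachon-lost (percent, with Wilson 95% intervals). Chromosomes 11 and 22 show the widest excess of lost regions, with lost-to-gained ratios of 1.47, and on chromosome 23 gained regions exceed lost ones (ratio 0.855).

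Position along a chromosome made little difference. In the outermost 10% at either end of the chromosomes, measured to the last peak, 21.6% of 12444 regions were gained (interval 20.9 to 22.3) and 23.2% lost (interval 22.5 to 24.0). In the stretch between them, 21.3% of 51598 regions were gained (interval 21.0 to 21.7) and 23.1% lost (interval 22.8 to 23.5).

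At the scale of 1 Mb, some windows were dominated by gain. Over the 930 windows the gained share had a median of 21.1%, with 5% of windows below 10.3% and 5% above 41.8%, whereas the lost share had a median of 22.3% and lay between 12.2% and 34.2% for the same limits. The highest gained share was on chromosome 6 from 23000001 to 24000000, where 26 regions were gained, 4 lost and 8 shared (68.4% gained, interval 52.5 to 80.9). On chromosome 5 from 6000001 to 7000000, 15 were gained, 7 lost and 2 shared (62.5% gained, interval 42.7 to 78.8). On chromosome 24 from 7000001 to 8000000, 18 were gained, 5 lost and 6 shared (62.1% gained, interval 44.0 to 77.3). All 3 windows held fewer than 40 regions, below the chromosomal averages of 62.6 to 67.7 per Mb on those chromosomes. A ranking by share favours windows with few regions, where counting error is larger.

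The windows richest in lost regions were less extreme. On chromosome 22 from 16000001 to 17000000, 6 regions were gained, 25 lost and 21 shared (48.1% lost, interval 35.1 to 61.3). On chromosome 15 from 11000001 to 12000000, 10 were gained, 51 lost and 51 shared (45.5% lost, interval 36.6 to 54.8), in a crowded window of 112 regions. On chromosome 12 from 25000001 to 26000000, 7 were gained, 22 lost and 20 shared (44.9% lost, interval 31.9 to 58.7). These windows are the highest of many, so their intervals are too narrow for a choice made on the share itself.

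Long runs of consecutive regions of 1 class were commoner for gain. With single regions counted as runs, there were fewer gained than lost runs, 9274 against 10793. Single regions made up 6606 of the gained and 7978 of the lost runs. Runs of 5 or more numbered 190 for gained and 65 for lost regions, and runs of 3 or more held 27.3% of gained and 19.7% of lost regions. The longest gained run had 11 regions over 156 kb of chromosome 23, from 2884558 to 3040141, with region lengths of 249 to 740 bp. The next were 9 regions over 390 kb of chromosome 24, from 31530950 to 31921427, and 9 over 236 kb of chromosome 19, from 23279668 to 23515497. The median region lengths of these 3 runs were 300, 346 and 358 bp, beside 360 bp for all gained regions on chromosomes.

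The longest runs of lost regions had 10 members. One spanned 223 kb of chromosome 9, from 16048831 to 16272319, with a median length of 293 bp. The other was compact, with 10 regions in 39.9 kb of chromosome 2, from 6287681 to 6327602, and a median of 410 bp. A run of 8 over 120 kb of chromosome 11, from 5626280 to 5746309, had the longest members, with a median of 604 bp and a maximum of 1162 bp. Chromosome 11 was also the chromosome with the highest lost-to-gained ratio.

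The 10 longest Pachon-gained regions on chromosomes were single peaks of 2988 to 5608 bp, against a median of 360 bp for gained regions on chromosomes. The longest ran from 18048507 to 18054114 on chromosome 2 and was 5608 bp long, with the nearest Surface peak 12380 bp away. A 3385 bp region on chromosome 7 from 26849025 to 26852409 was 25368 bp from a Surface peak. On chromosome 8 from 11652822 to 11656099 the gained region was 3278 bp long, and on chromosome 17 from 1354440 to 1357710 it was 3271 bp. The others were on chromosome 18 at 24984135 (3196 bp), chromosome 6 at 1417674 (3084 bp), chromosome 23 at 8298406 (3035 bp), chromosome 20 at 17807168 (3022 bp) and 25907847 (2988 bp), and chromosome 22 at 2477813 (2991 bp). None of the 10 lay nearer than 8373 bp to a Surface peak, against a median distance of 6774 bp for all gained regions on chromosomes.

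The 10 longest Pachon-lost regions on chromosomes were single Surface peaks of 2890 to 4913 bp. They lay 548 to 59106 bp from the nearest Pachon peak. Most were farther off than the median of 4059 bp for all lost regions on chromosomes. The longest, 4913 bp, ran from 25045913 to 25050825 on chromosome 12, inside the window rich in lost regions named above, with the nearest Pachon peak 59106 bp away. The second, 4158 bp from 36235231 to 36239388 on chromosome 20, lay 548 bp from a Pachon peak. On chromosome 20 from 5164145 to 5168072 the lost region was 3928 bp long, on chromosome 14 from 5846924 to 5850384 3461 bp, and on chromosome 22 from 10902063 to 10905518 3456 bp. The remaining 5 were on chromosome 3 at 3808090 (3376 bp), chromosome 8 at 11521776 (3165 bp), chromosome 5 at 777686 (3015 bp), chromosome 12 at 3502221 (2964 bp) and chromosome 15 at 1918034 (2890 bp). On chromosome 8 the lost region at 11521776 and the gained one at 11652822 were both among these longest regions.

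Some shared regions differed in width nearly as much as a gain or a loss. On chromosome 7 from 32203723 to 32207139 the widths were 3417 bp in Pachon and 396 bp in Surface, a log2 ratio of 3.11 (8.63-fold). The next widest in Pachon, by log2 ratio, were on chromosome 24 at 1411142 (2721 bp in Pachon, 348 bp in Surface), chromosome 18 at 9684956 (3014 and 419 bp), chromosome 15 at 31422438 (2189 and 323 bp) and chromosome 8 at 10797930 (2164 and 340 bp). In all 5 the whole Surface peak lay inside the Pachon peak.

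The opposite case was as marked. On chromosome 12 from 1093205 to 1098688 the widths were 483 bp in Pachon and 5484 bp in Surface, a log2 ratio of -3.51 (a ratio of 0.0881). On chromosome 6 from 17366713 to 17370251 it was 321 bp in Pachon and 3539 bp in Surface (log2 ratio -3.46). The others were on chromosome 25 at 11012081 (387 bp in Pachon, 2775 bp in Surface), chromosome 9 at 8789839 (529 and 3716 bp) and chromosome 22 at 4393644 (305 and 1943 bp). In the first 4 of these the Pachon peak lay wholly inside the Surface peak.

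The 5 shared regions with the most bases covered by both lists had similar extents in both forms, which the choice by common coverage favours. Among shared regions of 2000 bp or more with 1 peak of each list, the Pachon peak was at least 2-fold narrower in 9.78% and at least 2-fold wider in 6.78%. Over all lengths the shares were 6.58% and 4.09%, but these include regions too short for a 2-fold difference, with 0% of either kind under 300 bp. From 1000 to under 2000 bp the shares were 10.7% narrower and 5.51% wider. On chromosome 3 from 53623191 to 53639375 the Pachon peak measured 16020 bp and the Surface peak 16132 bp, and on chromosome 23 from 8937139 to 8951524 it was 14386 bp in Pachon and 14365 bp in Surface. In the other 3 of the 5, 1 Surface peak was matched by several Pachon peaks. On chromosome 3 from 6951438 to 6966569, 4 Pachon peaks covered 14325 bp and 1 Surface peak 14823 bp. On chromosome 25 from 26629846 to 26642222, 2 Pachon peaks covered 11984 bp and 1 Surface peak 12377 bp, and on chromosome 3 from 53654899 to 53666320, 2 Pachon peaks covered 10598 bp and 1 Surface peak 11300 bp.

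The Tinaja list offers a readout that the classes did not use. A Tinaja peak was present in 59.0% of the Pachon-gained regions (interval 58.4 to 59.7), in 34.9% of the Pachon-lost regions (interval 34.2 to 35.5) and in 91.4% of the shared regions. The share was higher for gained than for lost regions in each length class. Under 300 bp it was 47.8% of gained regions (interval 46.6 to 49.0) and 28.8% of lost regions (interval 27.7 to 29.8). At 2000 bp and more it was 85.4% of 137 gained regions (interval 78.5 to 90.3) and 50.7% of 136 lost regions (interval 42.4 to 59.0). Of the 10 longest regions of each class on chromosomes, 9 gained and 5 lost ones held a Tinaja peak. These counts are near the shares of all chromosomal regions of 2000 bp and more, 90.3% of 62 gained and 58.0% of 50 lost. The Tinaja list was longer than both others, with 84653 peaks, and the shares were not adjusted for that.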

How the data were processed

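Livers were profiled by ATAC-seq. Per the labels' protocols, nuclei were released by Dounce homogenisation, some 70000 of them were tagmented for 22 to 24 min, and sequencing was paired-end. Per the submitters' processing notes, the tools were bcl2fastq 2.20, SAMtools, Bowtie2 and MACS2. Build, read filters, duplicate handling, Tn5 offset, peak threshold and any pooling of replicates were not given in the sources used here. The deposited lists have 6 columns, of which the first 3 (sequence, start, end) were used; the score deposited by the authors was 0 for every peak and ranked nothing.

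Peaks were read with Python 3.11.15 (numpy 2.4.6, scipy 1.17.1, matplotlib 3.10.9) and merged where they overlapped by 1 bp or touched. Classes on simulated peaks, split and partly overlapping ones included, were checked. Chromosomes are sequences with numeric names. Wilson 95% intervals were used for shares and exact binomial order statistics for medians; a ratio's interval comes from the Wilson interval of its share. Regions named are, on chromosomes, the 10 longest gained and lost, the 5 shared with the most bases covered by both lists, the 5 with the highest and lowest width ratio (both peaks at least 300 bp), the 3 windows of 1 Mb and the 3 runs highest for each class. These members and rules were chosen with earlier results of these data known. Gaps, window counts, the split by Tinaja density and the Tinaja readout were added after the data were seen. Alternatives are given in the closing section.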

Additional observations from a re-analysis of the deposited data

How the results depend on the processing

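No paired analysis was possible because each form has 1 list, recorded under replicate 1, and whether it holds 1 or both replicates is not stated, so no replicate could be left out either. Class counts, lost-to-gained ratios, width ratios, distances to the other list, following regions and density groups were recomputed with peaks within 200 bp merged, with an overlap of 50% of each peak required (reciprocal overlap), with peaks of at least 300 bp, with 500 bp around peak midpoints, with equal numbers of widest peaks and on chromosomes only; those for distances, following regions and density groups were chosen after seeing the data, and not every setting was run for each. None of these recomputed ratios changed sides of 1 (0 on the log2 scale). Over all sequences, the lost-to-gained ratio could hardly have changed sides under the reciprocal overlap or with 500 bp peaks. The Surface list is the longer, 73380 against 72521 peaks, and peaks mostly match 1 to 1. Gaps, window counts, split peaks, runs, widths by length and the Tinaja readout were not recomputed. Shared regions fell to 41.0% of regions under the reciprocal overlap, against 54.2%. The ratio of lost to gained regions was 1.03 both under the reciprocal overlap and with 500 bp peaks, 1.02 with equal numbers of widest peaks and 1.08 on chromosomes, where gained regions numbered 13689. In the densest windows it was 1.21 under the reciprocal overlap and 1.29 with 500 bp peaks. The median log2 width ratio, Pachon over Surface, was -0.050 under the reciprocal overlap, -0.066 with peaks of at least 300 bp and -0.072 on chromosomes. Median distances to the other list were 7966 bp for gained and 4948 bp for lost regions with peaks of at least 300 bp, and 5829 bp for gained and 3675 bp for lost regions with 500 bp peaks. Gained regions were followed by another in 31.1% with 500 bp peaks, and lost regions in 26.4% with peaks of at least 300 bp. By construction, the reciprocal overlap keeps no matched pair of peaks that differ by more than 2-fold in width. Dropping peaks under 300 bp likewise removes possible neighbours. Beyond this, the cause of these shifts was not tested. The 10 named gained and 10 named lost regions kept their class under the 3 settings run for them, which their distance from the other list fixed in advance. Lost regions outnumbered gained ones on 14 to 18 chromosomes. Depth is unknown here, and how many unshared regions hold peaks near the caller's threshold was not tested. Whether coordinates of an assembly made from surface fish affect the Pachon list was not tested either.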
